A study of Mus musculus with 12 samples.

Results

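Aire was followed here as a single gene, matched by its symbol, through RNA sequencing of mouse thymic epithelial cells (TECs); it is 1 of the 27179 genes counted in each library. The TECs came by sorting from organ cultures of fetal C57BL/6 thymus taken at E15.5. Every group spent 4 to 5 days in 1.35 mM 2'-deoxyguanosine, a nucleoside that depletes thymocytes, and then 3 days with 10 µg/mL of an agonist antibody to RANK, so Aire was measured throughout in cells driven to make it. There were 4 groups of 3 cultures. Control and Kat7 knockout cultures both had tamoxifen, and the knockout carried RosaCre-ERT2, a tamoxifen-activated recombinase made in all cell types, with Kat7fl/fl alleles, so Kat7 was not removed from the epithelium alone. Wildtype cultures had the solvent DMSO or WM-3835, a small-molecule inhibitor of the KAT7 protein. The labels give neither the makeup of the control genotype nor the dose and timing of WM-3835. The count columns of the controls are headed wt, and the sample titles spell the compound WM-3825. The series calls the cultures biological replicates, with no statement of which animals each came from.

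AIRE, the autoimmune regulator, is a nuclear protein of medullary TECs that lets these cells transcribe genes otherwise limited to other tissues, so that developing T cells meet those products in the thymus. Its gene is switched on late in medullary TEC maturation by RANK and CD40, receptors of the tumour necrosis factor family that signal through NF-kB, chiefly its alternative arm of NIK, RELB and NFKB2. AIRE acts with acetyltransferases, topoisomerases and the elongation factor P-TEFb at promoters that have little activity of their own. KAT7, also called HBO1, is a histone acetyltransferase that acts in complexes on histones H3 and H4.

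Aire (Entrez ID 11634) lies on chromosome 10, 78030022 to 78043610, on the minus strand of mm10, a span of 13589 bases. GENCODE lists 16 transcripts, 11 of them protein-coding, and its principal one, Aire-204, has 14 exons and 1938 bases. The 250 bases before the RefSeq start (GRCm38.p6, the assembly also called mm10, chr10:78043611-78043860, minus strand) are printed because RefSeq places the start of Aire at their edge. Whether the transcripts counted here begin there is not known, as the annotation used for counting is not given. Capitals mark a TATAAA and, read on the other strand, a CCAAT.
Aire promoter: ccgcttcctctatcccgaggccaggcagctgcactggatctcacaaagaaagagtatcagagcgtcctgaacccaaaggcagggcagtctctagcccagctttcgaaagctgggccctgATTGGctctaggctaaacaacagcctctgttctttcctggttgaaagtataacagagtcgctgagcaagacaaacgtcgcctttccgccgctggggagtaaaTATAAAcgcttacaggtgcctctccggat

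The TATAAA, the core of a TATA box, runs from 29 to 24 bases before the start, and the same letters occur on either strand in 12.4% of 32841 RefSeq promoter windows of this length. The CCAAT on the other strand lies 131 to 127 bases before the start, and 33.9% of windows hold one. GGGCGG (a GC box, in 32.7% of windows), the core of the interferon-stimulated response element (in 3.0%) and the kappaB motif (in 7.3%) have no match in the Aire window on either strand. Bases beyond the window were not searched, so sites farther from the start are not covered. The window is 53.2% G and C, against a median of 52.4% over all windows, and holds 11 CpG, against a median of 6. No motif searched overlaps another in it.

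Another gene starts inside Aire. Dnmt3l, which encodes a cofactor of DNA methyltransferases, runs on the opposite strand, and in GENCODE the genes share chromosome 10, 78041947 to 78043610, or 1664 bases. The library kit does not mark strand, so reads from that stretch cannot be assigned to a strand. Exons of the 2 genes share 67 bases when all transcripts are taken and 0 bases between protein-coding transcripts, while 598 bases of Aire's coding-transcript exons (30.9%) lie within the shared stretch. Dnmt3l had group means of 4.06 to 14.3 CPM, which are counts scaled to one library size.

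The labelled deletion was checked first. Kat7 held 3762, 3072 and 2730 counts in the control libraries and 22, 22 and 25 in the knockout libraries, a mean of 80.5 against 0.762 CPM, while the DMSO group had 87.3 ± 2.37 CPM and the WM-3835 group 99.4 ± 0.953 CPM (SD, n = 3). Total counts ran from 26656847 to 52368012 per library. Xist, the RNA of the inactive X chromosome, divided the libraries: 2.34 to 3.17 CPM in the controls and 4.94 in knockout 3, against 846 to 2118 in the remaining 8 libraries. Knockout 3 was thus the knockout library matched to the controls in Xist. The cells were epithelial by their markers, whose 8 genes summed to 6648 to 10990 CPM per library. Of 10 thymocyte genes, summing to 8.63 to 16.5 CPM, Rag2 was at 0 in every group. Red cell genes summed to 3.01 CPM at most and endothelial genes to 20.7 CPM at most.

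Cells outside the epithelium that can make AIRE left little RNA. The 6 B cell genes summed to 11.2 to 13.8 CPM in control, 6.96 to 8.98 in knockout, 4.49 to 6.62 with DMSO and 4.48 to 5.55 with WM-3835. The 5 genes of innate lymphoid and Ccr7-expressing cells summed to 36.5 to 48.4, 29.2 to 35.9, 19.1 to 20.5 and 25.3 to 25.8 CPM in the same order. Both sums were lower in knockout than in control libraries, without overlap, while edgeR called 0 of the 5 B cell genes tested (0 at an unadjusted p under 0.05, 0 by DESeq2 and 0 by limma-voom) and 0 of the 4 innate genes (2 unadjusted, 1 by DESeq2, 0 by limma-voom). Genes of dendritic cells and macrophages summed to 52.4 to 116 CPM, with overlap among all 4 groups. Of the 8 tested, 2 rose and 1 fell in the knockout, and 1 rose with WM-3835. In DMSO against control, 1 of these 8 was higher and 2 were lower. In that comparison 2 of the 5 B cell genes and 3 of the 4 innate genes were also lower. With WM-3835, 1 of the 4 innate genes rose. The 4 general leukocyte genes summed to 82.0 to 102 CPM in control, 54.6 to 74.2 in knockout, 22.4 to 28.5 with DMSO and 20.2 to 29.7 with WM-3835. Of these 4 genes, 2 fell in the knockout and 3 were lower in DMSO than in control. The 8 fibroblast genes summed to 127 to 197, 62.5 to 85.4, 58.0 to 75.6 and 51.9 to 65.6 CPM in the same order. Of the fibroblast genes, 4 fell in the knockout, 3 fell and 1 rose with WM-3835, and 4 were lower and 1 higher in DMSO than in control. Over all genes, 8.06% fell and 6.12% rose in the knockout, and 9.35% fell and 9.34% rose with WM-3835. In DMSO against control 13.3% of all genes were lower and 11.4% higher. The leukocyte and fibroblast sums were thus lower in knockout and DMSO than in control libraries, without overlap, while DMSO and WM-3835 libraries overlapped. Each of these sums lay below the Aire CPM of the same library, and the part of these cells in the changes of Aire was not tested.

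Aire was higher with DMSO than in any other group. Scaled for library size by the TMM method, it stood at 596, 669 and 636 CPM in the 3 control libraries. The knockout libraries held 542, 490 and 577 CPM. With DMSO the values were 1123, 1215 and 1260 CPM. With WM-3835 they were 510.1, 586 and 572 CPM. The DMSO libraries thus stood well above all others, the 3 controls lay next, and knockout and WM-3835 libraries shared one range beneath the controls. Behind these values lay 13315 to 58264 Aire counts per library. Counting alone gives a coefficient of variation of 0.414% to 0.867%, against 5.71% to 8.18% between replicates, so depth did not limit the precision.

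**Figure D1:**
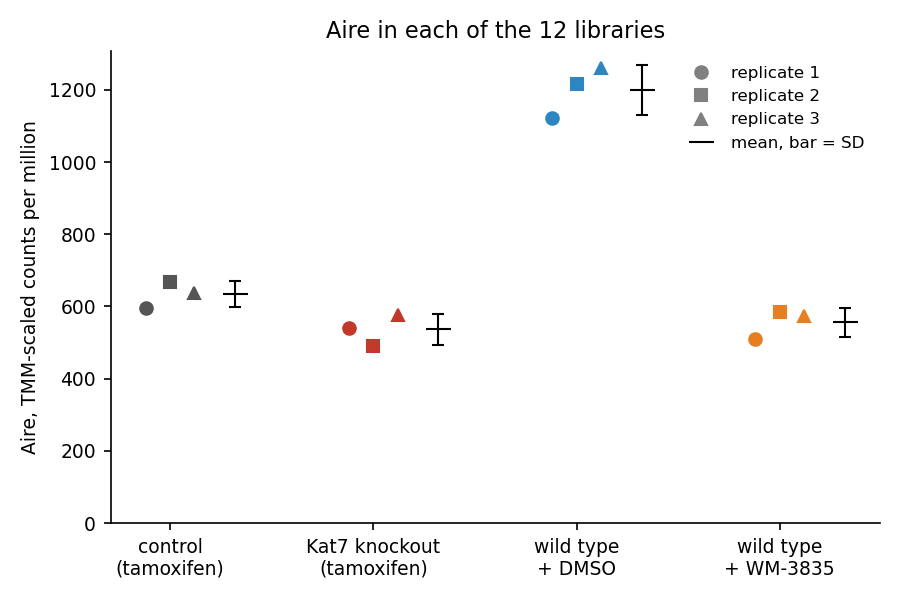
Aire in each library, in TMM-scaled CPM (linear axis from 0), by group; symbols are the replicate numbers, the horizontal mark is the group mean and the bar its SD. The 3 DMSO libraries lie between 1123 and 1260 CPM, above the other 9, and the knockout and WM-3835 libraries overlap.

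Per kilobase of its 1929 bases, Aire ranked 111 to 125 among 18670 tested genes in the controls and 55 to 66 with DMSO. It ranked 123 to 139 in the knockout and 129 to 143 with WM-3835. On this scale the group means were 328.5 RPKM (CPM divided by the length in kilobases) in control, 278 in knockout, 622 with DMSO and 288 with WM-3835. Scaling by total counts alone left the order of group means unchanged, at 637 CPM for control, 534 for knockout, 1204 for DMSO and 553 for WM-3835.

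The knockout comparison asks how far Aire depends on Kat7 under RANK stimulation. Aire was 633.6 ± 36.2 CPM in control and 536 ± 43.9 CPM in knockout cultures (SD, n = 3 each), and the 3 knockout values all lay below the 3 controls. By edgeR's quasi-likelihood test the fall was 0.24 on the log2 scale (a log2 change of -0.24, SE 0.08, 95% interval -0.40 to -0.08), a change of -15.3%. It passed narrowly, with a Benjamini-Hochberg adjusted p = 0.0457 over 18670 genes, of which 14.2% were called in this comparison. By p-value it ranked 2513, among the last of the genes called. Because RNA was taken from cells in bulk, fewer AIRE-expressing cells and less Aire RNA per cell cannot be told apart.

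That call rested on several single libraries. The adjusted p was 0.152 without control 2 (log2 change -0.19), 0.0861 without control 3 (-0.23), 0.111 without knockout 1 (-0.24) and 0.222 without knockout 2 (-0.17). Knockout 2 was the lowest knockout library and control 2 the highest control. Knockout 3, the library matched to the controls in Xist, was the highest of its group, and set alone against the controls it gave -0.12 (adjusted p = 0.57); a lone library has no spread of its own and is assumed there to vary like the other groups. With Xist as a covariate the change was -0.11 (adjusted p = 0.645). Since every control has low Xist and 2 of the 3 knockouts have high Xist, the knockout and the Xist difference cannot be told apart in these libraries. The sign was negative in each of the 18 other settings tried, and the adjusted p passed in 9 of them.

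The inhibitor comparison asks the same of cultures given the KAT7 inhibitor, whose effect on KAT7 activity was not measured in these libraries. Aire fell from 1199 ± 69.9 CPM with DMSO to 556 ± 40.5 CPM with WM-3835 (SD, n = 3 each) and the groups did not overlap. The log2 change was -1.11 (SE 0.08, 95% interval -1.27 to -0.94, edgeR adjusted p = 3.36e-08), a change of -53.6% with an interval of -58.6% to -48%. Aire ranked 17 by p-value, where 18.7% of all genes were called. The call held in each of 18 other settings, between -1.16 and -1.05.

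The fall with WM-3835 was larger than that in the knockout. The difference between the changes was 0.87 on the log2 scale (SE 0.11, 95% interval 0.64 to 1.10, edgeR adjusted p = 4.7e-05), in a test that called 10.1% of genes. It passed in each of 23 other settings, from 0.82 to 1.00. The 2 comparisons share no library.

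**Figure D2:**
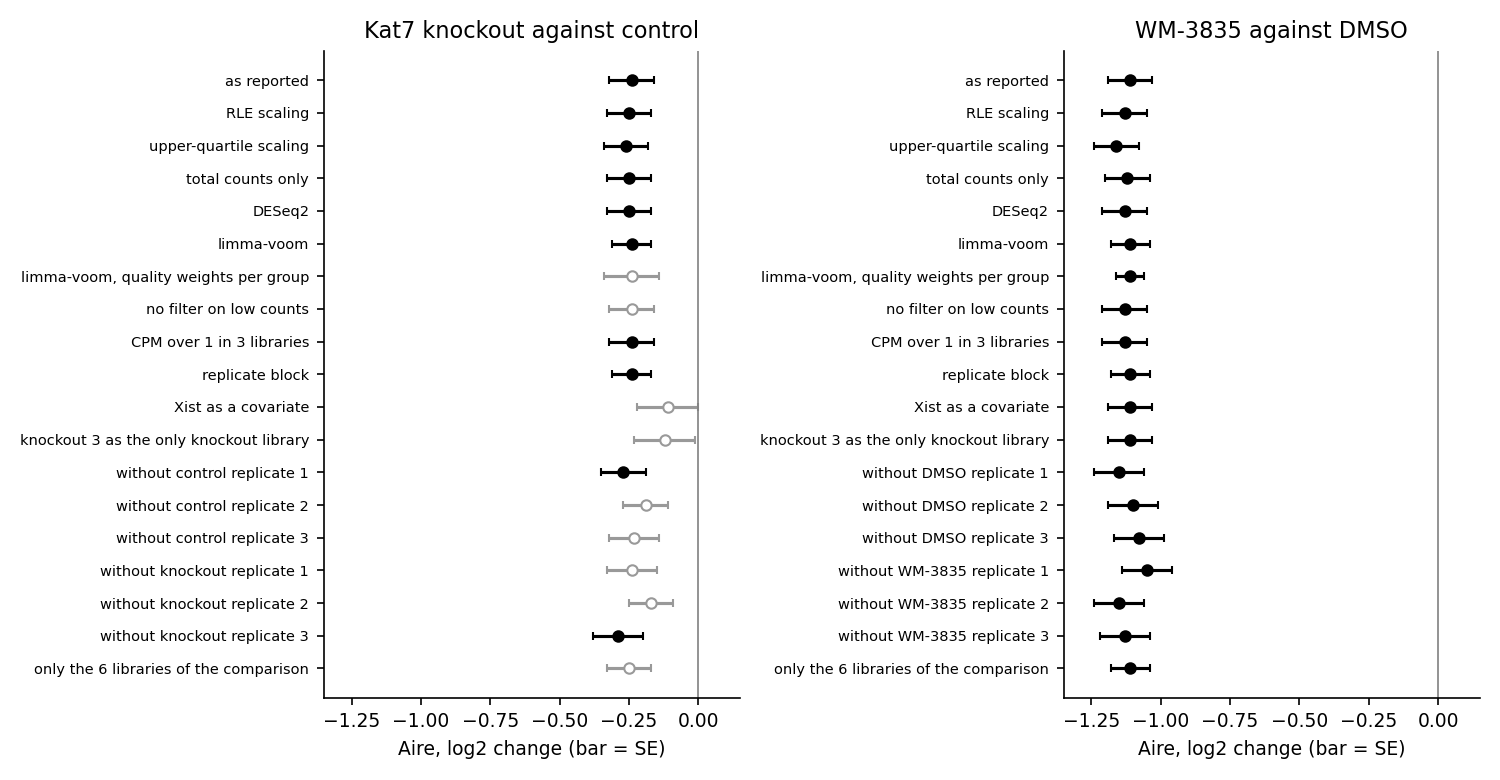
Log2 change of Aire (bar = SE) in the 12-library edgeR fit (as reported) and in 18 other settings, for knockout against control (left) and WM-3835 against DMSO (right); filled points passed at an adjusted p under 0.05. All points lie below 0, with 9 of the 18 other settings open on the left and none on the right.

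The reference groups themselves differed more than knockout and control. Aire was higher by 0.92 on the log2 scale in DMSO than in control cultures (SE 0.08, 95% interval 0.76 to 1.08, edgeR adjusted p = 8.75e-08), 1.89-fold, in a comparison that called 24.6% of all genes. Tamoxifen, DMSO, the genotype label and Xist all differ between these groups and cannot be told apart. The DMSO libraries enter both this comparison and that with WM-3835, so the 2 values are not independent. WM-3835 cultures stood close to the tamoxifen groups. Against control their log2 change was -0.19 (SE 0.08, 95% interval -0.35 to -0.03, adjusted p = 0.0675) where 35.2% of all genes were called, and the ranges did not overlap. Against knockout it was 0.05 (SE 0.08, adjusted p = 0.692), and its interval spans -7.39% to 16.1%; that comparison called 22.5% of all genes. With 3 libraries against 3, a two-sided exact permutation test of mean CPM cannot go below p = 0.1. This exact test gave that value for knockout against control (a difference of -97.2 CPM), WM-3835 against DMSO (-643.1), DMSO against control (566) and WM-3835 against control (-77.5), and p = 0.6 for WM-3835 against knockout (19.7).

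Neither of the receptor genes that lead to Aire passed the test in the knockout. Tnfrsf11a, the gene of RANK, stood at 80.3, 77.4 and 84.7 CPM in control, 79.5, 81.9 and 93.9 in knockout, 112, 124 and 127 with DMSO and 93.0, 117 and 108 with WM-3835. Its log2 change was 0.07 in the knockout (SE 0.09, adjusted p = 0.659) and -0.19 with WM-3835 (SE 0.09, adjusted p = 0.176). Cd40 stood at 77.1 CPM in control and 66.8 in knockout (-0.21, SE 0.09, adjusted p = 0.124). With WM-3835 Cd40 fell from 98.8 to 63.6 CPM (-0.64, SE 0.09, adjusted p = 3.89e-05). The knockout call in this family was Tnfrsf11b, the gene of a soluble decoy for the RANK ligand, which fell by 1.01 (SE 0.11, adjusted p = 1.64e-05). Of 9 receptor and ligand genes tested from a list of 10, 1 fell in the knockout and the other 8 did not pass (median log2 change -0.21, against -0.01 over all genes), where 8.06% of all genes fell and 6.12% rose. With WM-3835, where 9.35% of all genes fell and 9.34% rose, 2 fell and 1 rose (median -0.19): Cd40, Tnfrsf11b by 0.37, and Tnfrsf1b, a TNF receptor gene, which rose by 0.63. Tnfrsf11b was not called there without DMSO 2, DMSO 3, WM-3835 1 or WM-3835 3, and the count of falls was then 1. The knockout falls were 2 without control 2, control 3, knockout 2 or knockout 3, and 1 rise appeared without control 1 or knockout 1.

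Genes that carry the signal to NF-kB had a median of 0 in the knockout and of -0.12 with WM-3835. Relb, the activating subunit of the alternative arm, was at 176 CPM in control and 176 in knockout (log2 change 0.00, SE 0.08, adjusted p = 0.988), at 254 with DMSO and 210 with WM-3835. Of 19 genes, 2 rose (Traf6 and Ikbkg) and 2 fell (Map3k14, the gene of NIK, and Tnfaip3, an inhibitor of NF-kB) in the knockout, with a median of 0, where 6.12% of all genes rose and 8.06% fell. These counts were unsteady: no member fell without knockout 2 or 3, 1 fell without control 2 or 3, 1 rose without control 2 or knockout 1, and none rose without control 3 or knockout 2. With WM-3835, 2 rose and 3 fell (median -0.12), where 9.34% of all genes rose and 9.35% fell. Birc2, a ubiquitin ligase that holds NIK down, fell from 262 to 163 CPM (-0.68, SE 0.08, adjusted p = 8.95e-06), Birc3 of the same family fell by 0.36, and Relb fell by 0.27 (adjusted p = 0.0173), a call lost without DMSO 1, DMSO 3 or WM-3835 1. Ikbkg, a scaffold of the IkB kinase, rose by 0.46, and Rela, the activating subunit of the classical arm, rose by 0.34. In DMSO against control, where 11.4% of all genes rose and 13.3% fell, 8 of the 19 rose and 3 fell. Among the receptor and ligand genes, Tnfrsf11a (0.58), Cd40 (0.36) and Ltbr (0.57) rose there, the direction of Aire in that comparison. Tnfrsf11b fell by 0.56 (edgeR adjusted p = 0.00116), and the other 5 of the 9 tested did not pass.

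Irf4 and Irf8, interferon regulatory factor genes whose products are reported to act at Aire, were lower in both comparisons. Irf8 stood at 98.9, 114 and 107 CPM in control, 81.2, 69.7 and 58.3 in knockout, 120, 110 and 108 with DMSO and 54.2, 61.9 and 46.9 with WM-3835. Neither pair of groups overlapped, at log2 changes of -0.61 in the knockout (SE 0.11, adjusted p = 0.00168) and -1.05 with WM-3835 (SE 0.12, adjusted p = 3.86e-06). Irf4 stood at 22.8, 29.5 and 36.9 CPM in control, 14.7, 17.5 and 15.6 in knockout, 28.1, 40.7 and 32 with DMSO and 7.97, 10.6 and 10.6 with WM-3835. It fell by 0.90 in the knockout (SE 0.18, adjusted p = 0.00292) and by 1.79 with WM-3835 (SE 0.19, adjusted p = 2.08e-06), again without overlap. Neither was called between DMSO and control, at 0.08 for Irf8 (adjusted p = 0.661) and 0.18 for Irf4 (adjusted p = 0.536). Both are also active in B cells and myeloid cells, whose marker sums are given above.

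Of the 9 factors reported to act on the Aire gene, 5 fell in the knockout and the other 4 did not pass. Their median was -0.37, against -0.01 over all genes, of which 8.06% fell. Those that fell were Irf4, Irf8, the Ets-family genes Ets1 (-0.40) and Spib (-0.27), and Jmjd6 (-0.37), an RNA-binding hydroxylase. The count of 5 was 3 without control 1, control 3, knockout 2 or knockout 3 and 2 without knockout 1, and it was 1 with Xist in the model or with knockout 3 alone; Irf8 was called in every setting. Without control 2, 1 member rose. With WM-3835, where 9.35% of all genes fell, 3 fell (Irf4, Irf8 and Ets1, at -0.41) and the other 6 did not pass (median -0.15). Ets1 was not called there without DMSO 2, WM-3835 1 or WM-3835 3.

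Genes of proteins that work with AIRE had a median near 0 in the knockout and a small positive one with WM-3835. Of 25, 1 rose in the knockout (Ccnt2, a cyclin of P-TEFb, by 0.39) and the other 24 did not pass, with a median of 0.03. Of all genes, 6.12% rose and 8.06% fell there. A second rise came in without control 1, control 2 or knockout 2, and 1 fall without control 2 or control 3. With WM-3835, 4 rose and 1 fell, where 9.34% of all genes rose and 9.35% fell. The median was 0.14, against -0.01 over all genes, and 6 of the 25 had a change below 0. Sirt1, the gene of a deacetylase that acts on AIRE, fell from 217 to 121 CPM (-0.84, SE 0.08, adjusted p = 6.37e-07). Its knockout change was -0.19 (adjusted p = 0.105). The 4 rises, Polr2a (0.40), Top1 (0.24), Atf7ip (0.28) and Hnrnpl (0.19), were small. Their number was 2 without DMSO 1, WM-3835 2 or WM-3835 3, 1 without DMSO 3, and none without DMSO 2 or WM-3835 1.

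**Figure D3:**
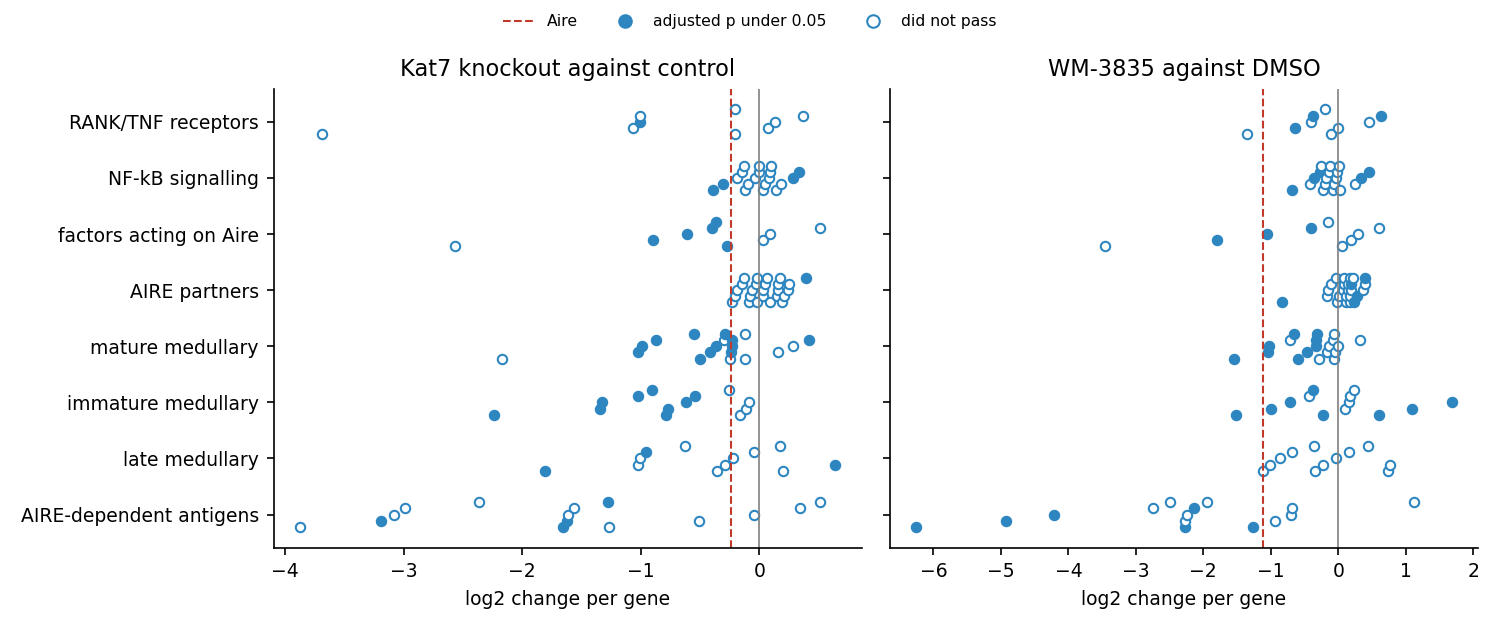
Log2 change of each tested gene in 8 lists, knockout against control (left) and WM-3835 against DMSO (right), on axes of different range; filled points passed at an adjusted p under 0.05 and the dashed line is Aire. Mature medullary markers and AIRE-dependent antigens have medians below 0 in both panels. Scarce antigens may have been tested only through the group where they were high. Immature markers have a median of -0.77 on the left and 0.10 on the right. NF-kB genes have medians of 0 on the left and -0.12 on the right, and AIRE partners of 0.03 and 0.14.

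More markers of mature medullary TECs, the cells that make AIRE, fell than rose in both comparisons. Of 19 genes of mature medullary TECs, 11 fell and 1 rose in the knockout (median -0.29), where 8.06% of all genes fell and 6.12% rose. With WM-3835, 9 fell and the other 10 did not pass (median -0.31), where 9.35% of all genes fell. Some of these genes, the MHC class II and costimulatory genes among them, are also made by dendritic cells and B cells, and their part in these counts was not tested. H2-DMb2, a chain of the peptide editor of MHC class II, fell by 0.87 in the knockout (SE 0.10, adjusted p = 2.8e-05) and by 1.04 with WM-3835 (SE 0.10, adjusted p = 1.42e-06). Pdcd1lg2, the gene of the inhibitory ligand PD-L2, fell by 0.99 in the knockout (adjusted p = 0.000772). Cd83, a maturation marker of antigen-presenting cells, fell by 1.55 with WM-3835 (SE 0.23, adjusted p = 0.000104), and H2-Ab1, an MHC class II chain, fell by 0.60 there against -0.25 in the knockout (adjusted p = 0.051). The knockout count of 11 was 4 without control 2 or any 1 of the 3 knockout libraries, 2 with Xist in the model and 3 with knockout 3 alone.

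Set against the summed counts of those markers, in which abundant genes weigh most, Aire in the knockout shared the range of the controls. There were 5.10, 4.95 and 5.46 Aire counts per 100 counts of the mature list in control libraries and 5.10, 4.80 and 5.43 in knockout libraries, ranges that overlap almost wholly. With DMSO the ratio was 8.37, 8.40 and 9.73, and with WM-3835 it was 4.90, 4.77 and 5.19, below every DMSO library. Against Epcam, a general epithelial marker, Aire was lower in both: 83.7 to 97.3 per 100 Epcam counts in control, 69.1 to 78.5 in knockout, 208 to 244 with DMSO and 67.9 to 76.5 with WM-3835. Epcam itself rose with WM-3835 (0.51, adjusted p = 1.08e-05), and the cortical TEC genes Psmb11 (-1.26) and Prss16 (-1.06) fell, while in the knockout Prss16 rose (0.66), a call lost without control 1, knockout 1 or knockout 2. The part of a changed mix of epithelial cells was not tested.

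Markers of the immature medullary TECs from which AIRE-expressing cells arise differed between the comparisons. Of 13, 9 fell in the knockout and the other 4 did not pass (median -0.77), where 8.06% of all genes fell. The part of fibroblasts and other cells outside the epithelium, whose marker sums are given above, in these counts was not tested. For 9 of the 13 the knockout and WM-3835 changes differed by the test of the difference, 8 of them lower in the knockout. That test called 5.69% of all genes lower and 4.41% higher. Ccl21a, the thymocyte-attracting chemokine gene, fell by 1.33 in the knockout (SE 0.14, adjusted p = 8.96e-06) and by 0.71 with WM-3835 (SE 0.14, adjusted p = 0.00155). Trp63, a regulator of epithelial progenitors, fell by 0.62 and by 0.99 in the same order. With WM-3835, 5 immature markers fell and 3 rose (median 0.10), where 9.35% of all genes fell and 9.34% rose. The keratin gene Krt15 rose by 1.68 and the junction gene Cldn3 by 1.10. Without DMSO 2 the falls numbered 3. The count of 9 in the knockout was 5 with Xist in the model or with knockout 3 alone. DMSO cultures already had less of this list than controls, with 9 of 13 lower, where 13.3% of all genes were lower. Aire per 100 counts of the immature list was 6.91 to 8.19 in control and 6.96 to 8.51 in knockout, which overlap, and 20.1 to 26.2 with DMSO against 10.5 to 12.9 with WM-3835, which do not. This ratio uses the summed counts of the list, in which abundant genes weigh most. The sum was 7770 to 8632 CPM in control and 6784 to 7047 in knockout, a smaller fall than the list median. The ratio thus does not describe Aire against a typical immature marker. Of 12 genes of late, post-AIRE medullary cells, 1 rose and 2 fell in the knockout (median -0.33), where 6.12% of all genes rose and 8.06% fell. The falls were 1 without control 1, knockout 1 or knockout 3. The rise was lost without control 2, knockout 2 or knockout 3, and a second appeared without knockout 1. With WM-3835 edgeR called 0 of the 12 (median -0.29), where 18.7% of all genes were called. Of the 12, 6 had an unadjusted p under 0.05, with 2 falls by DESeq2, 0 by limma-voom and 1 fall without DMSO 2. In DMSO against control 8 of the 12 fell, where 13.3% of all genes fell.

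Antigens that AIRE brings on were read against Aire itself. Csn2, a milk casein gene with more counts than the rest of the list, stood at 222, 174 and 202 CPM in control, 91.5, 77.1 and 78.0 in knockout, 184, 203 and 184 with DMSO and 33.2, 46.1 and 38.9 with WM-3835. Knockout and WM-3835 libraries lay below their references without overlap, while control and DMSO libraries shared a range although Aire in DMSO was 1.89-fold higher. Csn2 fell by 1.28 in the knockout (SE 0.11, adjusted p = 1.26e-06) and by 2.27 with WM-3835 (SE 0.12, adjusted p = 7.19e-10). The log2 change between DMSO and control was -0.07 (adjusted p = 0.723). Per 100 Aire counts there were 26.0 to 37.1 Csn2 counts in control and 13.5 to 16.9 in knockout. With DMSO there were 14.6 to 16.7 and with WM-3835 6.52 to 7.86. The casein transcript thus fell more than Aire in both comparisons, and knockout and DMSO libraries had one range of the ratio.

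**Figure D4:**
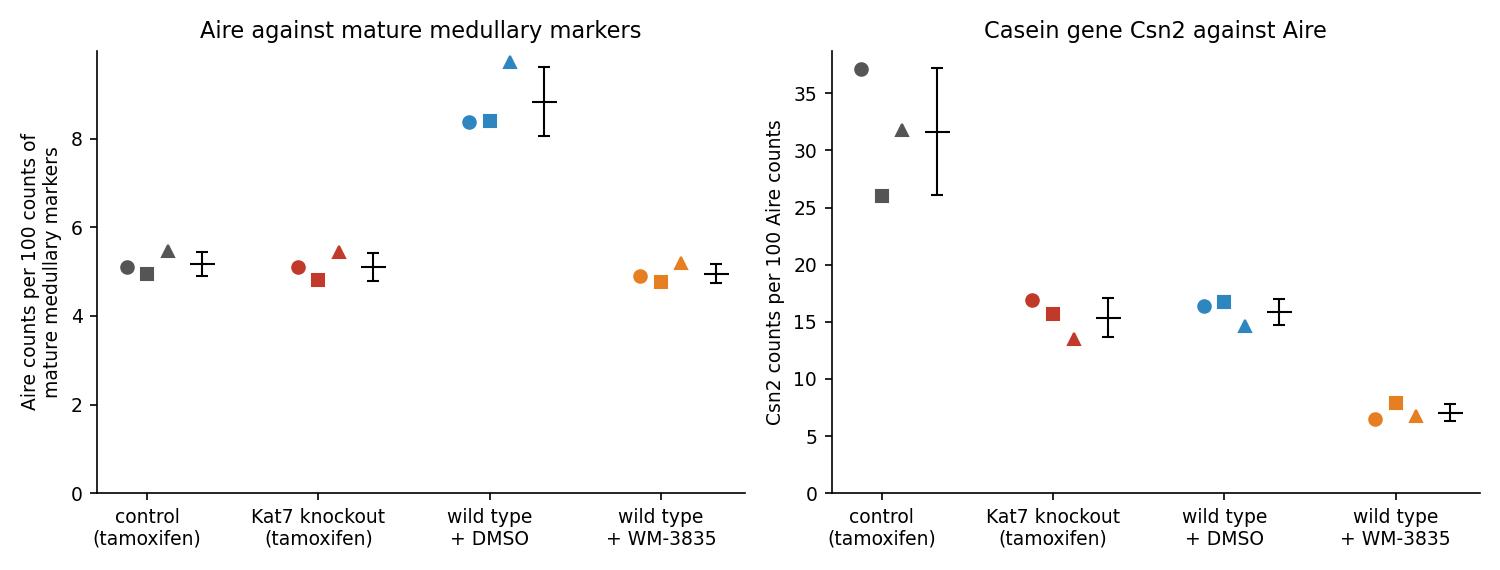
Aire counts per 100 counts of 19 mature medullary markers (left) and Csn2 counts per 100 Aire counts (right) in each library, on linear axes from 0; symbols are replicate numbers as in the plot of Aire by library, with group mean and SD. On the left the knockout overlaps the control (4.80 to 5.43 against 4.95 to 5.46); on the right it does not (13.5 to 16.9 against 26.0 to 37.1).

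The other antigens were scarce. Of 19 listed, 18 were in the table and 15 passed the filter on low counts, so the counts that follow leave out members that were hardly detected. A scarce member can pass that filter through the group where it is high. Falls of scarce members and the list medians may thus be partly set by the filter, and are no separate evidence. In the knockout 4 fell and 11 did not pass (median -1.61), where 8.06% of all genes fell. The 4 were Csn2, S100a8, a calcium-binding gene of neutrophils (-1.62), Muc6, a stomach mucin (-1.66), and Dcpp1, a salivary gland gene (-3.19). With WM-3835 6 fell and 9 did not pass (median -2.24), where 9.35% of all genes fell. The 6 were Csn2, S100a8 (-2.14), Muc6 (-1.27), Dcpp3, Csn1s1 and Bpifa2. Bpifa2 was at 0 in all 3 WM-3835 libraries and at 0.254 CPM with DMSO, so no fold is given. The list without Csn2 summed to 27.1 to 34.6 CPM in control and 9.18 to 13.1 in knockout. It summed to 17.1 to 22.3 with DMSO and 5.75 to 7.20 with WM-3835. Per 100 Aire counts that was 4.46 to 5.18, 1.59 to 2.52, 1.52 to 1.83 and 1.13 to 1.23 in the same order, lower than the reference in both comparisons. The count of 4 was 1 with Xist in the model or with knockout 3 alone, and the count of 6 was 3 without DMSO 3 or WM-3835 3, 4 without DMSO 2 or WM-3835 1, 2 with limma-voom and 10 with quality weights per group. Dcpp1 in the knockout was not called without knockout 3. Muc6 with WM-3835 was not called without DMSO 3, WM-3835 2 or WM-3835 3, and Csn1s1 and Bpifa2 lost their calls without most single libraries.

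Genes beside Aire did not follow it as a block. RefSeq places 22 other genes within 200 kb of Aire on chromosome 10, of which 14 were in the table and 10 were tested. In the knockout 1 rose and 3 fell, where 6.12% of all genes rose and 8.06% fell. With WM-3835 2 rose and 4 fell, where 9.34% rose and 9.35% fell. Trpm2, a cation channel gene, stood at 128 CPM in control, 94.1 in knockout, 151 with DMSO and 75.2 with WM-3835. It fell by 0.45 (SE 0.15, adjusted p = 0.0489) and by 1.01 (SE 0.15, adjusted p = 8.19e-05), and its knockout call was lost without control 2, control 3 or any 1 knockout library. Dnmt3l, which overlaps Aire, fell by 1.06 (adjusted p = 0.019) and by 0.99 (adjusted p = 0.0214), from 14.3 to 6.85 CPM and from 8.09 to 4.06 CPM. Its knockout call was lost without control 3, knockout 2 or knockout 3, and its call with WM-3835 without DMSO 2, DMSO 3, WM-3835 1 or WM-3835 3.

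Pfkl, a phosphofructokinase gene of glycolysis that lies 20.2 kb beyond the 3′ end of Aire, went in opposite directions, falling by 0.64 in the knockout (SE 0.09, adjusted p = 0.00012) and rising by 0.37 with WM-3835 (SE 0.09, adjusted p = 0.00585). Icosl, the gene of a T cell costimulatory ligand and a mature medullary marker, starts 25.8 kb before Aire. It rose by 0.42 in the knockout (SE 0.08, adjusted p = 0.00169) and fell by 0.31 with WM-3835 (SE 0.08, adjusted p = 0.00927), a call lost without WM-3835 1. Like Aire it was higher in DMSO than in control, by 1.33 (adjusted p = 1.31e-09). With WM-3835, Lrrc3 fell by 1.29 and Pwp2, a ribosome assembly gene, rose by 0.33, the latter not called without any 1 of the DMSO libraries, WM-3835 2 or WM-3835 3. The knockout falls numbered 1 without control 3, knockout 2 or knockout 3 and none with knockout 3 alone. The WM-3835 falls numbered 2 without WM-3835 1.

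**Figure D5:**
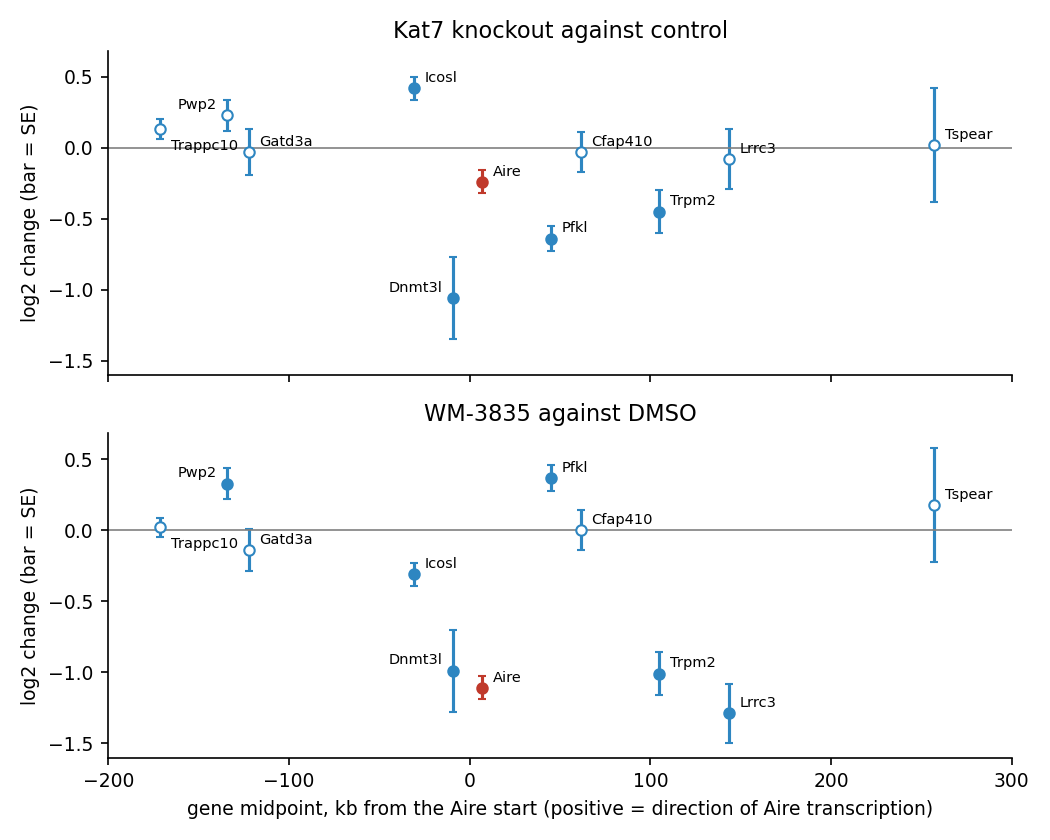
Log2 change (bar = SE) of Aire and the 10 tested genes within 200 kb, against the distance of each gene's midpoint from the Aire start in kb, for knockout against control (top) and WM-3835 against DMSO (bottom); filled points passed at an adjusted p under 0.05. Pfkl and Icosl change sign between the panels, and Dnmt3l and Trpm2 lie below 0 in both.

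Across the 12 libraries, the genes whose log2 CPM followed Aire most closely were taken by Pearson correlation among 12991 genes with a mean log2 CPM of at least 1. The 10 highest were Slc1a3 (r = 0.981), Lsm14b (0.980), Mras (0.977), Sh3tc2 (0.975), Pnma8b (0.965), Lipg (0.954), Oprd1 (0.953), Micall2 (0.948), Zfas1 (0.947) and Pacsin2 (0.944). The libraries differ in group, treatment and Xist status, and the high DMSO group sets most of the spread. These correlations therefore describe likeness of pattern only. Slc1a3, a glutamate transporter gene, stood at 136, 156 and 150 CPM in control, 129, 115 and 118 in knockout, 269, 277 and 291 with DMSO and 140, 135 and 139 with WM-3835. As for Aire, its DMSO libraries were the highest and its knockout libraries lay below the controls. Its log2 changes were -0.29 in the knockout (edgeR adjusted p = 0.0145, not called without control 2, knockout 2 or knockout 3) and -1.02 with WM-3835 (adjusted p = 3.94e-08). As Slc1a3 was picked for its likeness to Aire in these same libraries, its changes restate that choice and are no separate evidence.

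Sh3tc2, an endosomal adaptor gene, had group means of 112, 76.0, 240 and 98.9 CPM in control, knockout, DMSO and WM-3835 cultures, and Pnma8b had 54.0, 36.0, 110 and 44.9 CPM. The 5 lowest correlations were those of Svopl (-0.986), Sertad4 (-0.982), Lratd1 (-0.974), C3 (-0.968) and Pdlim3 (-0.967). C3, the central complement gene, was lowest with DMSO, where Aire was highest. Its group means were 329 CPM in control, 362 in knockout, 71.5 with DMSO and 320 with WM-3835. C3 rose by 2.16 with WM-3835 (edgeR adjusted p = 9.16e-10), while its knockout change was 0.14 (adjusted p = 0.462). As C3 was picked for a pattern opposite to that of Aire in these libraries, its changes restate that choice. Once the group means were removed, none of the 10 highest remained among the 10 nearest to Aire, and none did by Spearman's rank correlation.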

How the data were processed

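RNA from sorted TECs of 12 organ cultures (4 groups of 3) was read as 75-base pairs with a kit that does not mark strand, per the labels' protocols. The deposited values are raw counts per gene, which the authors made with featureCounts on mm10, per the submitters' processing notes. Aligner, gene annotation and strand setting: not given in the sources used here. The counts of each sample's own file equalled those of the series table in 12 of 12 cases. The 1312 of 27179 genes without a symbol, with 0.657% to 0.743% of a library's counts, were left out. Libraries were scaled by TMM, and filterByExpr kept 18670 genes. Groups were compared with edgeR 4.0.16 (R 4.3.3; quasi-likelihood test, 12 libraries, 4 group means), two-sided, with a Benjamini-Hochberg adjusted p under 0.05 over all tested genes as a call. A fall or rise is a log2 fold change, SE its standard error, and CPM are TMM-scaled. Other settings were RLE, upper-quartile and total-count scaling, DESeq2 1.42.0, limma-voom (limma 3.58.1) with and without quality weights, other filters, Xist as a covariate (centred log2 of CPM + 1), knockout 3 alone, 6 libraries alone, a replicate block and each library left out. How reads shared by near-identical genes were counted is not stated, which bears on Csn1s1, H2-DMb2, Ccl21a and the Dcpp genes. Where cultures shared animals is not stated, so p-values measure the spread between these cultures, which may be partly technical.

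The gene and the 8 pathway and 9 cell marker lists were chosen with earlier results of these data known. Named genes are Aire and Kat7, up to 4 members of a list with the smallest adjusted p in a comparison or a defining marker, tested genes within 200 kb of Aire, and the 10 highest and 5 lowest correlations with Aire (log2 CPM, prior count 2), without predicted genes and clone names. Members beyond 4 of a list are named where a small count is spelled out. Coordinates and promoter sequence are RefSeq's on GRCm38.p6 and GENCODE vM21's; Aire and 14 of its 22 neighbours were matched to the table by Entrez ID. Values of some list members are not reported here.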

Additional observations from a re-analysis of the deposited data

Results flagged for a closer look

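Among Aire, the members of the 8 pathway lists, the neighbours within 200 kb, the epithelial markers named above and the genes most like Aire, those that follow had a knockout change that differed from the WM-3835 change by the test of the difference (edgeR, adjusted p under 0.05, called for 10.1% of all genes); each value is the knockout change minus the WM-3835 change on the log2 scale. For Aire it was 0.87. Among receptor and NF-kB genes it was -0.64 for Tnfrsf11b, 0.43 for Cd40, 0.58 for Traf6, 0.82 for Birc2 and -0.47 for Rela. Among factors on the Aire gene and AIRE partners it was 0.89 for Irf4, -0.46 for Spib and 0.65 for Sirt1. Mature medullary markers gave 1.83 for Cd83 and 0.73 for Icosl. Immature markers gave -0.91 for Krt14, -2.7 for Krt15, -0.89 for Itga6, -0.72 for Itgb4, 0.36 for Trp63, -1.15 for Pdpn, -0.93 for Ly6a, -1.26 for Cldn3 and -0.71 for Cldn4. Spink5, a protease inhibitor gene of the late list, gave 1 and Csn2 gave 1. The neighbours Lrrc3 and Pfkl gave 1.2 and -1.01. Epcam gave -0.48, and the cortical genes Psmb11 and Prss16 gave 1.71 each. Among the genes chosen for a pattern like or opposite to that of Aire, which these values restate, Slc1a3 gave 0.73, Lsm14b 0.4, Mras 0.53, Sh3tc2 0.73, Pnma8b 0.71, Lipg 0.62, Oprd1 1.77, Zfas1 0.7 and Pacsin2 0.48, while Svopl gave -1.82, Sertad4 -1.2, Lratd1 -1.39, C3 -2.02 and Pdlim3 -1.26. The reference groups of the comparisons, control and DMSO, differ in treatment, genotype label and Xist, whose part in these differences cannot be told apart.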

How the results depend on the processing

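For Aire, the fall with WM-3835, the larger fall with WM-3835 than in the knockout and the excess of DMSO over control kept their direction and their call in all 18, 23 and 18 other settings, at -1.16 to -1.05, 0.82 to 1.00 and 0.89 to 1.11. The knockout fall kept its sign and lost its call in 9 of 18 settings: -0.24 with quality weights per group (adjusted p = 0.152), -0.24 with no filter on low counts (0.0508), -0.11 with Xist as a covariate (0.645), -0.12 with knockout 3 as the only knockout library (0.57), -0.25 on its 6 libraries (0.0904) and 4 of the 6 fits that leave out 1 library, whose range was -0.29 to -0.17. WM-3835 against control passed with RLE scaling (-0.23, adjusted p = 0.0301), upper-quartile scaling (-0.26, 0.0146), DESeq2 (-0.23, 0.011), limma-voom (-0.19, 0.0429) and a filter of CPM over 1 in 3 libraries (-0.22, 0.0303), and without control 1 (-0.22, 0.0458), in a leave-one-out range of -0.22 to -0.12. WM-3835 against knockout changed sign with upper-quartile scaling (-0.01), with knockout 3 alone (-0.05) and without knockout 2 (-0.01), with leave-one-out ranges of -0.01 to 0.11 on the log2 scale and -3.393 to 42.76 for the difference in mean CPM, negative only without knockout 2. The cause of these shifts was not tested.

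No pairing of the cultures by replicate number was seen: deviations from group means of the 18 pairs with the same number correlated at -0.02 to 0.06. That correlation weighs scarce and abundant genes alike, so a shared origin of cultures could be missed. With a replicate block the Aire changes were -0.24 in the knockout (adjusted p = 0.0352), -1.11 with WM-3835 (2.85e-08), 0.87 for their difference (2.83e-05), 0.92 for DMSO against control (7.01e-08), -0.19 for WM-3835 against control (0.0508) and 0.05 for WM-3835 against knockout (0.685), with every call as before.

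Over all genes the knockout comparison called 2646 genes, and 1180 with quality weights, 503 with Xist in the model, 704 with knockout 3 alone and 1157 on its 6 libraries. WM-3835 against DMSO called 3490, and 6589 with quality weights and 6070 on its 6 libraries. Of the calls followed gene by gene, 11 of 31 in the knockout and 39 of 53 with WM-3835 held in each setting, 14 and 13 lost a call without a single library, and 0 changed sign. Of the 10 genes most like Aire, 10 stayed with a prior count of 0.5, 9 with total counts only, 0 by Spearman correlation and 0 on deviations from group means. Counts for the neighbours of Aire under these settings were added after seeing the data. Depth does not limit Aire, but it limits the antigens other than Csn2, most of which had under 10 CPM.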
